A study of Mus musculus with 9 samples.

Results

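The serpins are a family of proteins that share one fold, and the mouse genome sorts them into clades A to I by sequence. Genes whose symbol is Serpin, a clade letter and a number were taken as members, with symbols marked -ps (pseudogenes) left out. There were 63 members among the 51912 genes listed, and 61 of them are annotated as protein coding in GENCODE M21. Clade A held 25 members, clade B 27, clade E 3, clades F and I 2 each, and clades C, D, G and H 1 each. RNA was sequenced from the livers of 9 mice of the genotype *Apoe*-/-, *Ndst1* f/f and *Alb-Cre*+, backcrossed to C57Bl/6 and fasted. All 9 mice, controls included, lacked *Apoe* in every cell and *Ndst1*, an enzyme of heparan sulfate sulfation, in cells that express Cre from the albumin promoter. For 8 weeks, 5 mice received an antisense oligonucleotide (ASO) against *Apoc3*, the apoC-III ASO, and 4 received a control ASO, each at 50 mg/kg/week by intraperitoneal injection. Age, sex and the diet of these 9 mice are not given beside the RNA sequencing in the sources used here. The question addressed here is whether the serpin transcripts of these livers differed between the ASO groups.

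An inhibitory serpin exposes a reactive loop that a target protease cuts, after which the serpin traps the protease in a covalent complex. Hepatocytes secrete the serpins that dominate plasma, among them α1-antitrypsin (*Serpina1*), antithrombin (*Serpinc1*) and C1 inhibitor (*Serping1*). Antithrombin and heparin cofactor II (*Serpind1*) are accelerated by heparin and related glycosaminoglycans. Some members carry hormones or chaperone collagen instead of inhibiting proteases. Clade B members stay inside cells, largely in leukocytes and epithelia. In mice the ancestral *Serpina1* and *Serpina3* genes were duplicated into near-identical copies that differ most in the reactive loop.

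The reactive loop coding sequence is shown for the *Serpina1* copies because it is the part that meets the target protease. The coding sequences of *Serpina1a* to *Serpina1e* were 96.3% to 98.7% identical in pairs. The 78 bases below run 5′ to 3′ on the coding strand (the minus strand, GRCm38, GENCODE M21 transcripts), each within the last coding exon, and capitals mark the 17 positions at which the copies are not all alike.
Serpina1a (chr12:103853759-103853836): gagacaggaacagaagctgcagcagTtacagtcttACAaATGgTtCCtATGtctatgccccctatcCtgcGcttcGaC
Serpina1b (chr12:103728326-103728403): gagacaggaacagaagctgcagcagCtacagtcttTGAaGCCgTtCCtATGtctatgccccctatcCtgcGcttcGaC
Serpina1c (chr12:103895096-103895173): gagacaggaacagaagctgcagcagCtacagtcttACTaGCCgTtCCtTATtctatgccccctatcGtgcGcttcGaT
Serpina1d (chr12:103763764-103763841): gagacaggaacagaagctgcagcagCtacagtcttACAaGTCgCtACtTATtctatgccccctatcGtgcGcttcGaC
Serpina1e (chr12:103947102-103947179): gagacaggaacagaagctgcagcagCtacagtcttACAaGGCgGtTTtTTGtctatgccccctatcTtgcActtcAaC

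The *Serpina3* copies differ more. *Serpina3k* and *Serpina3m* were 92.5% identical over the coding sequence, and *Serpina3k* and *Serpina3n* 84.03%. Their loops are shown from the same point, on the plus strand, and capitals mark everything after the 29 bases that all 3 share.
Serpina3k (chr12:104345263-104345343): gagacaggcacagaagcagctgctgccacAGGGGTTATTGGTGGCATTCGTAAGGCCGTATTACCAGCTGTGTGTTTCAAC
Serpina3m (chr12:104393763-104393849): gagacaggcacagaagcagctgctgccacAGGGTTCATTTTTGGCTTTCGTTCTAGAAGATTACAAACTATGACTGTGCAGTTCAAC
Serpina3n (chr12:104413442-104413528): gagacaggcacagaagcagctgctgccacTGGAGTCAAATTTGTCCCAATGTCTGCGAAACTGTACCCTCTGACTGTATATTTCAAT

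How far a transcript can be told from its relatives was measured as the share of its 31-base words that occur in no other GENCODE M21 gene. That share was 14.2% for *Serpina1c*, 34.8% for *Serpina1a*, 35.3% for *Serpina1d*, 45.8% for *Serpina1e* and 55.3% for *Serpina1b*. It was 65.01% for *Serpina3m*, 75.8% for *Serpina3k* and 78.4% for *Serpina3n*, and 100% for *Serpina6*, *Serpina7*, *Serpina12*, *Serpind1*, *Serpinf1*, *Serpinf2*, *Serping1* and *Serpinh1*. *Serpinc1* (64.4%) and *Serpina11* (62.8%) share sequence with an overlapping gene model. The split of reads among the *Serpina1* copies, and among the *Serpina3* copies, is therefore uncertain, and their sums are given beside the single copies. *Gm8893*, a gene outside these sums, also holds 53.0% of the words of *Serpina1c* and 43.2% of those of *Serpina1a*. Reads could thus also be divided between these copies and that gene, which the sums do not undo.

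*Apoc3*, the transcript the ASO targets, was listed at 271, 199.5, 184 and 41.4 TPM (transcript abundance per unit of length, set to a fixed total in each liver) in control ASO livers 1 to 4 and at 27.2, 28.4, 15.8, 32.2 and 14.001 TPM in apoC-III ASO livers 1 to 5. The groups did not overlap, and the mean was 86.5% lower with the apoC-III ASO (p = 0.0159 by an exact permutation test, two-sided, which is the lowest value possible with 5 against 4 livers). Protein-coding transcripts took only 3.04% to 5.31% of TPM in the apoC-III ASO livers and 1.94% to 8.64% in the control ASO livers, and the noncoding genes *Rn7s1* and *Rn7s2* took 64.0% to 83.6% over all 9 livers. Levels are therefore given as scaled TPM: TPM of nuclear protein-coding genes rescaled to 1000000 per liver and divided by median-of-ratios factors of 0.950 to 1.44 in the apoC-III ASO livers and 0.496 to 1.16 in the control ASO livers. The lowest factor and the lowest coding share belonged to control ASO liver 4, which stands apart from the rest. TPM keeps no read depth, so no counting error is given. Marker genes of hepatocytes summed to 30224 to 65153 scaled TPM with the apoC-III ASO and 45149 to 57140 with the control ASO (9 of 10 markers listed; Tf was not found under that symbol).

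Of the 63 serpins, 28 had a mean of at least 1 scaled TPM and were tested, and 35 were not. The tested genes were 17 of 25 in clade A, 4 of 27 in clade B, 1 of 3 in clade E, both of clade F and the single members of clades C, D, G and H. No member of clade I was tested. Of the 35 untested genes, 24 were listed at 0 in every liver, 20 of them in clade B, and the other 11 did not exceed 0.136 TPM as deposited in any liver. Among those 11 were *Serpinb9*, an inhibitor of granzyme B (mean 0.0337 TPM with the apoC-III ASO and 0.0445 TPM with the control ASO), and *Serpini1*, neuroserpin (0.00537 and 0.0248 TPM).

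The tested serpins spanned a wide range and a few genes carried nearly all of the total. *Serpina3k* had the highest mean, followed by *Serpina1e*, *Serpina1c*, *Serpinc1*, *Serpina1a*, *Serpina1b* and *Serpina1d*, each above 1000 scaled TPM over the 9 livers. This order was not tested, and the ranges of *Serpina1e*, *Serpina1c*, *Serpinc1*, *Serpina1a*, *Serpina1b* and *Serpina1d* over the 9 livers overlapped. The range of *Serpina3k* overlapped those of *Serpina1e* and *Serpina1c*. The copies of *Serpina1* and *Serpina3* together made up 82.4% to 85.6% of the summed serpin level in the control ASO livers and 68.6% to 83.7% in the apoC-III ASO livers. The lowest tested genes were *Serpina3f*, *Serpinb6b*, *Serpina9* and *Serpina12*, each with a group mean of 1 to 3 scaled TPM.

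**Figure D1:**
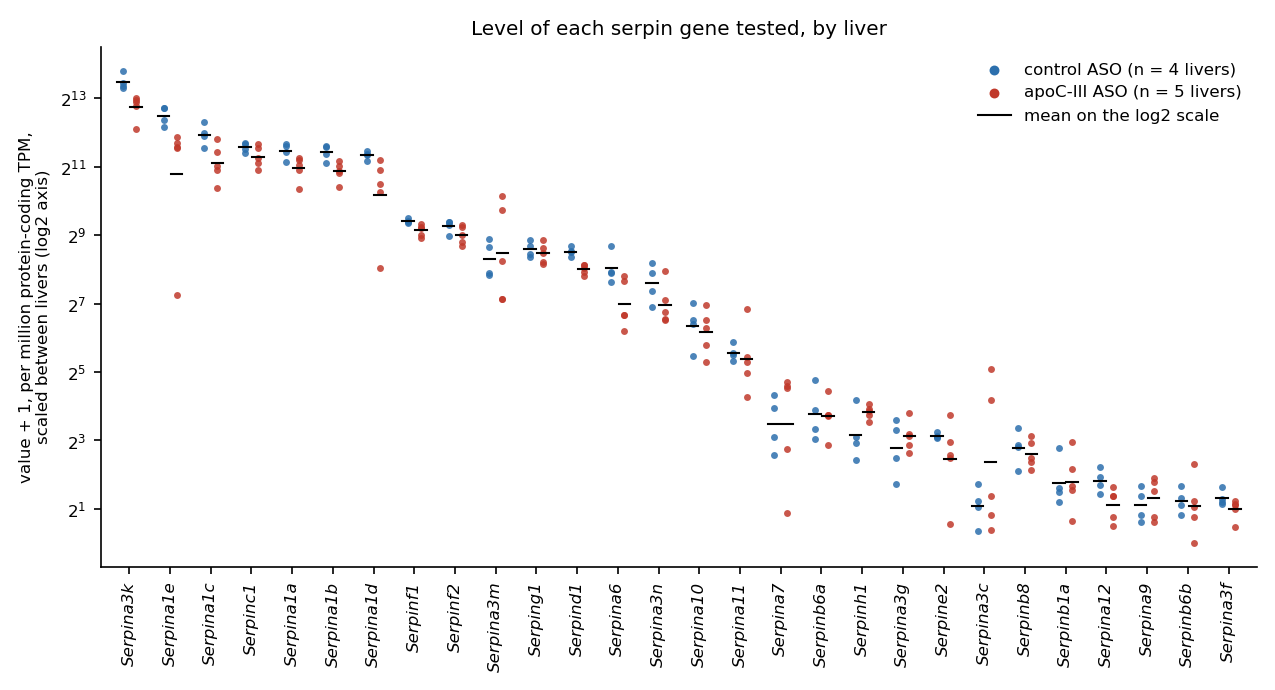
Level of the 28 tested serpin genes in each liver, in order of their mean, as scaled TPM plus 1 on a log2 axis. Blue points are the 4 control ASO livers, red points the 5 apoC-III ASO livers and black lines the group means on the log2 scale. On this scale, with factors, the red means lie under the blue ones for the 9 genes on the left (without factors *Serpinc1*, *Serpinf1* and *Serpinf2* change sign), and apoC-III ASO liver 4 lies far under the others for *Serpina1e* (151 scaled TPM).

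No serpin passed the test (limma, Benjamini-Hochberg adjusted p under 0.05 and over 1.5-fold), in either direction. The smallest adjusted p among them was 0.860. Over all 11968 genes tested, 2 passed (0.0167%), *Apoc3* and *Anpep*, both lower. At an unadjusted p under 0.05, 6 serpins were lower (background 2.57%) and 0 higher (background 3.0%). Among the 6 were *Serpina1b*, *Serpina1c* and *Serpina3k*, copies whose split of reads is uncertain, so these counts are not of independent genes. In the sign of the log2 fold change alone, 22 of the 28 were lower with the apoC-III ASO and 6 higher, against 50.1% lower over all genes. *Serpina7*, *Serpina11* and *Serpinb6b* are counted as lower, though their mean scaled TPM was 32.8%, 4.51% and 0.678% higher with the apoC-III ASO. The median log2 fold change of the 28 was -0.27, and that of all genes was -0.0013. With the *Serpina1* copies summed into 1 entry and the *Serpina3* copies into another, 16 of 19 were lower and 3 higher, with a median of -0.19. The 4 control values all lay above the 5 apoC-III ASO values for 4 serpins, *Serpina1e*, *Serpina3k*, *Serpind1* and *Serpinf1* (background 0.911%), and the reverse held for 0 (background 0.919%). The same 4 did so with TPM divided by factors from all genes, and 0 of the 28 did without factors or with TPM as deposited.

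These directions depend on how the livers are put on one scale. With protein-coding rescaling but no factors, 17 of 29 tested serpins were higher and 12 lower, with a median of 0.20 on the log2 scale against 0.41 over all genes. With TPM as deposited, 6 of 16 were higher and 10 lower (median -0.18, all genes 0.11). With TPM divided by factors from all genes, 1 of 16 was higher and 15 lower (median -0.48, all genes -0.020). The serpin median was thus below the median of all genes under each of these scalings, while its sign changed. With factors, abundant genes were lower in general. Among the 83 genes at 1000 scaled TPM or more, 75.9% were lower with a median of -0.24, and the 7 serpins among them were all lower with a median of -0.73. Among the 845 genes between 100 and 1000, 65.7% were lower (median -0.12), as were 6 of 7 serpins (median -0.28). At lower levels the serpins were mixed, with 4 of 5 lower between 10 and 100 and 5 of 9 lower between 1 and 10. Hepatocyte markers had a median of -0.30 (8 of 9 lower), close to the serpin median, and their part in the serpin values was not tested. In bulk liver, fewer cells of a type and less RNA per cell cannot be told apart.

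**Figure D2:**
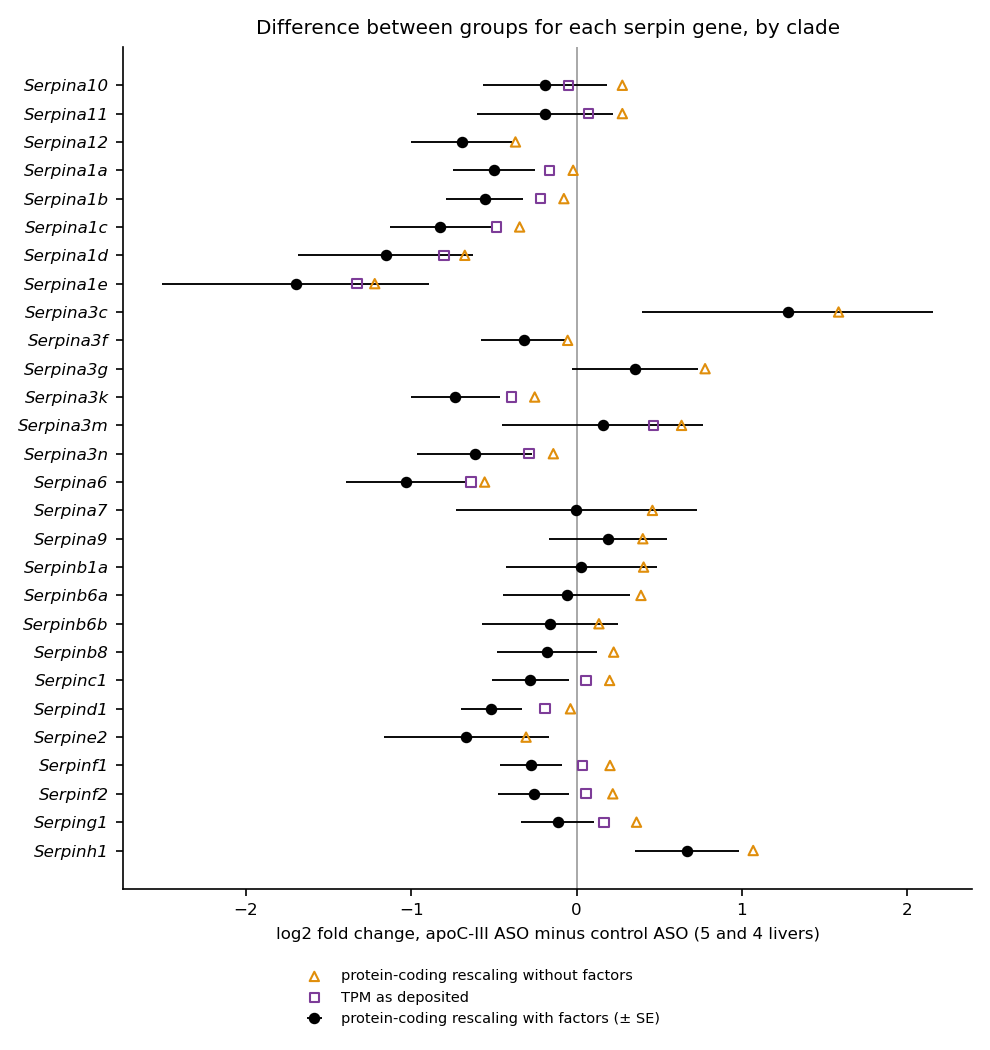
Log2 fold change of each tested serpin gene, apoC-III ASO minus control ASO, ordered by clade. Black circles with bars are protein-coding rescaling with factors ± SE, orange triangles the same without factors, and purple squares TPM as deposited (where its mean reaches 1). Leaving out the factors shifts every gene to the right, and 10 genes cross 0, among them *Serpinc1*, *Serpinf1*, *Serpinf2* and *Serping1*.

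The *Serpina1* copies encode forms of α1-antitrypsin, a plasma protease inhibitor, whose reactive loops differ as shown above. Summed over the 5 copies, the level was 18495, 19204, 14245 and 19686 scaled TPM in control ASO livers 1 to 4 and 13972, 9745, 10548, 5655 and 11599 in apoC-III ASO livers 1 to 5. With factors all 5 apoC-III ASO values lay below all 4 control values, with means of 10304 ± 3046 (SD, n = 5) against 17908 ± 2490.3 (SD, n = 4), 42.5% lower. As a share of protein-coding TPM with no factors the sums were 1.24% ± 0.478 (SD, n = 5) and 1.56% ± 0.537 (SD, n = 4), and the groups overlapped. Each copy was lower on average, under each alternative scaling too, and the size of the difference ranged from -0.50 on the log2 scale for *Serpina1a* to -1.70 for *Serpina1e*.

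*Serpina1e* stood at 6669, 5268, 4579 and 6674 scaled TPM in control ASO livers 1 to 4 and 3293, 3733, 3071, 151 and 2963 in apoC-III ASO livers 1 to 5. Liver 4 of the apoC-III ASO group was far below the others, and the remaining 4 livers of that group still lay under the lowest control, though not without factors. The log2 fold change was -1.70 ± 0.81 (SE; limma, unadjusted p = 0.0584, adjusted p = 0.882), and without that liver it was -0.82. *Serpina1d* stood at 2641, 2567, 2303 and 2794 scaled TPM in control ASO livers 1 to 4 and 2338, 1446, 1212, 259.6 and 1915 in apoC-III ASO livers 1 to 5. The same liver was again the lowest, and liver 1 of the apoC-III ASO group reached the control range. The log2 fold change was -1.16 ± 0.53 (SE; limma, unadjusted p = 0.0504, adjusted p = 0.876), or -0.62 without liver 4.

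*Serpina1c*, the copy with the fewest words of its own, stood at 3780, 5035, 2957 and 4056 scaled TPM in control ASO livers 1 to 4 and 3574, 1897, 2077, 1322 and 2744 in apoC-III ASO livers 1 to 5. The groups overlapped through liver 1 of the apoC-III ASO group, and the log2 fold change was -0.82 ± 0.31 (SE; limma, unadjusted p = 0.0205, adjusted p = 0.860). *Serpina1b* gave means of 1880.3 ± 352 (SD, n = 5) against 2749 ± 427 (SD, n = 4) scaled TPM, with a log2 fold change of -0.56 ± 0.23 (SE; limma, unadjusted p = 0.0353, adjusted p = 0.876). *Serpina1a* gave means of 2024 ± 446 (SD, n = 5) against 2827 ± 453 (SD, n = 4) scaled TPM, with a log2 fold change of -0.50 ± 0.25 (SE; limma, unadjusted p = 0.0693, adjusted p = 0.883). Both overlapped between groups, and neither set apart liver 4, where *Serpina1a* was 2112 and *Serpina1b* 1811 scaled TPM. In the controls *Serpina1e* took 27.4% to 36.1% of the *Serpina1* sum, *Serpina1a* 14.8% to 16.9% and *Serpina1c* 20.4% to 26.2%, the highest in control liver 2. In apoC-III ASO liver 4 *Serpina1e* took 2.67% and *Serpina1a* 37.3%, and in the other 4 livers of that group *Serpina1e* took 23.6% to 38.3%.

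The *Serpina3* copies descend from the gene for α1-antichymotrypsin, and 6 of the 11 were tested. *Serpina3k*, which encodes the abundant plasma inhibitor contrapsin, made up 93.7% to 96.6% of the *Serpina3* sum in the controls. Its level was 11067, 10139, 10461 and 14278 scaled TPM in control ASO livers 1 to 4 and 6953, 8264, 7824, 4389.7 and 7632 in apoC-III ASO livers 1 to 5. With factors every control liver lay above every apoC-III ASO liver, and without factors the groups overlapped. The log2 fold change was -0.73 ± 0.27 (SE; limma, unadjusted p = 0.0186, adjusted p = 0.860), and it was -0.57 without apoC-III ASO liver 4 and -0.25 without factors. The sum over the 10 protein-coding copies followed *Serpina3k*, with means of 7677 ± 1289 (SD, n = 5) against 12033 ± 2021 (SD, n = 4) scaled TPM and no overlap between groups. As a share of protein-coding TPM without factors it was 0.9196% ± 0.253 (SD, n = 5) and 1.02% ± 0.198 (SD, n = 4), with overlap.

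The other *Serpina3* copies did not move as one. *Serpina3m*, whose gene model overlaps that of *Serpina3k*, stood at 236, 227, 401 and 473 scaled TPM in control ASO livers 1 to 4 and 140.3, 138, 848, 1119 and 302 in apoC-III ASO livers 1 to 5. Livers 3 and 4 of the apoC-III ASO group were high and livers 1 and 2 were under every control. The log2 fold change was 0.16 ± 0.61 (SE; limma, unadjusted p = 0.8, adjusted p = 0.992), and without liver 4 its sign changed (-0.26). *Serpina3c* was high in the same livers, at 1.08, 0.275, 1.34 and 2.35 scaled TPM in control ASO livers 1 to 4 and 0.312, 1.58, 17.2, 33.02 and 0.779 in apoC-III ASO livers 1 to 5. Its log2 fold change was 1.28 ± 0.88 (SE; limma, unadjusted p = 0.174, adjusted p = 0.906) and 0.60 without liver 4. *Serpina3n*, an acute phase protein of liver and an inhibitor of granzyme B, gave means of 134 ± 65.4 (SD, n = 5) against 203 ± 76.9 (SD, n = 4) scaled TPM with overlap, and its log2 fold change was -0.62 ± 0.35 (SE; limma, unadjusted p = 0.102, adjusted p = 0.900). *Serpina3g* and *Serpina3f* had group means of 1 to 9 scaled TPM, and their log2 fold changes were 0.35 and -0.32, with adjusted p of 0.948 and 0.918 (limma).

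**Figure D3:**
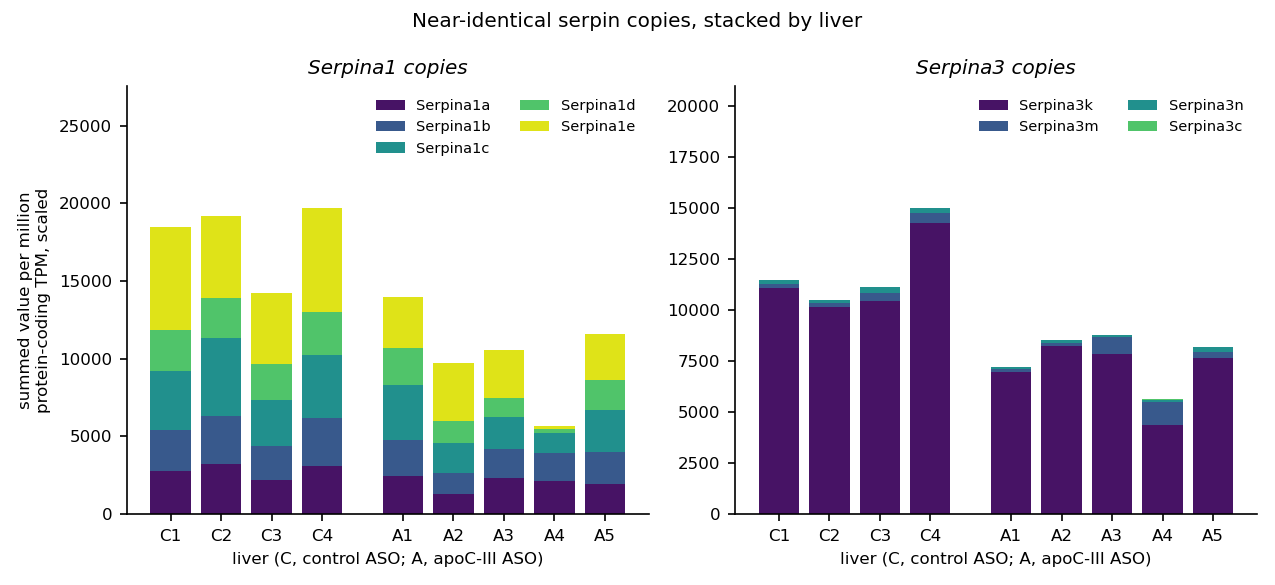
Scaled TPM of the *Serpina1* copies (left) and of the 4 main *Serpina3* copies (right), stacked for each liver. C1 to C4 are control ASO livers and A1 to A5 apoC-III ASO livers. With factors each apoC-III ASO column is lower than each control column in both panels (without factors the sums overlap), and in A4 *Serpina1e* and *Serpina1d* almost vanish (151 and 259.6 scaled TPM) while *Serpina3m* is at 1119.

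The *Serpina1* and *Serpina3* copies lie in one cluster of chromosome 12, with *Serpina1e* at chr12:103946931-103958975 on the minus strand and *Serpina3k* at chr12:104338486-104346144 on the plus strand. Because apoC-III ASO liver 4 stood apart, chosen after its values were seen, each gene within 2000 kb of *Serpina1e* was set against the median of the other 8 livers. In liver 4 the log2 ratio was -4.78 for *Serpina1e*, -3.16 for *Serpina1d*, -1.30 for *Serpina1c*, -0.31 for *Serpina1b* and -0.18 for *Serpina1a*. It was 3.94 for *Serpina3c*, 2.05 for *Serpina3m*, 1.47 for *Serpina11* and -1.07 for *Serpina3k*. The 23 tested neighbours that are not serpins ranged from -0.51 to 1.48, with 2 of them over 1 in size. Over all genes tested, 8.12% were over 1 in size in this liver, and 0.159% were at or under -3. In liver 3 of the same group *Serpina3c* (3.04) and *Serpina3m* (1.65) were high as well, while *Serpina1e* was at -0.44. Low and high copies thus lay in the same cluster within liver 4, with *Serpina3c* and *Serpina3m* at 197 and 413 kb from *Serpina1e*. *Serpina3k* and *Serpina3m* have overlapping gene models, and the division of reads between them was not tested.

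**Figure D4:**
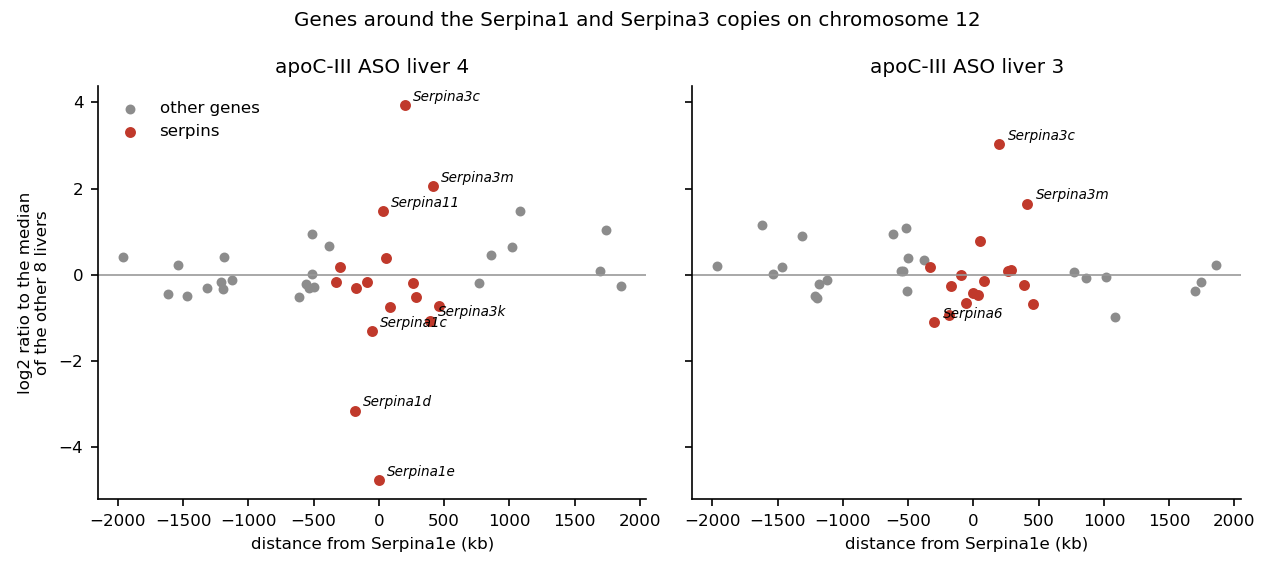
Log2 ratio of apoC-III ASO liver 4 (left) and liver 3 (right) to the median of the other 8 livers, for tested genes within 2000 kb of *Serpina1e*, by distance in kb. Red points are serpins and grey points other genes. In liver 4 *Serpina1e* (-4.78) and *Serpina1d* (-3.16) lie under, and *Serpina3c* (3.94) and *Serpina3m* (2.05) over, every grey point. In liver 3 *Serpina3c* and *Serpina3m* lie over every grey point.

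Clade A also holds serpins that carry hormones. *Serpina6*, corticosteroid-binding globulin, stood at 241, 238, 195 and 413 scaled TPM in control ASO livers 1 to 4 and 72.5, 101, 99.5, 225 and 202 in apoC-III ASO livers 1 to 5. Livers 4 and 5 of the apoC-III ASO group lay within the range of the controls and the other 3 lay below it. This gave the smallest p of the family, with a log2 fold change of -1.03 ± 0.36 (SE; limma, unadjusted p = 0.0145, adjusted p = 0.860). *Serpina7*, thyroxine-binding globulin, which lies on chromosome X, stood at 5.01, 7.602, 14.3 and 19.3 scaled TPM in control ASO livers 1 to 4 and 23.1, 21.96, 25.04, 5.79 and 0.841 in apoC-III ASO livers 1 to 5. The apoC-III ASO livers split into 3 values above every control and 1 value below every control, with liver 4 between. It had a log2 fold change of -0.0012 ± 0.73 (SE; limma, unadjusted p = 0.999, adjusted p = 0.999).

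The remaining clade A members had lower levels. *Serpina12*, vaspin, stood at 3.72, 2.22, 1.68 and 2.84 scaled TPM in control ASO livers 1 to 4 and 1.59, 2.09, 1.59, 0.714 and 0.404 in apoC-III ASO livers 1 to 5. The groups overlapped at these low levels, and the log2 fold change was -0.70 ± 0.31 (SE; limma, unadjusted p = 0.0427, adjusted p = 0.876). *Serpina10*, the protein Z-dependent inhibitor of factor Xa, gave means of 76.2 ± 32.8 (SD, n = 5) against 86.6 ± 35.2 (SD, n = 4) scaled TPM and a log2 fold change of -0.19 ± 0.38 (SE; limma, unadjusted p = 0.619, adjusted p = 0.976). *Serpina11* was 18.4 to 42.2 scaled TPM in 4 apoC-III ASO livers and 114 in liver 4, against 38.7 to 57.9 in the controls. Its log2 fold change was -0.19, though the group mean was 4.51% higher with the apoC-III ASO. *Serpina9*, known from germinal center B cells, was 0.539 to 2.74 and 0.549 to 2.17 scaled TPM in the apoC-III ASO and control livers, with a log2 fold change of 0.19. *Serpina5*, the protein C inhibitor, was listed above 0 in only 2 livers.

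The heparin-dependent inhibitors of thrombin were abundant. *Serpinc1*, antithrombin, stood at 3230.3, 2681, 2919.6 and 3324 scaled TPM in control ASO livers 1 to 4 and 2958, 2208, 2426, 3227 and 1892 in apoC-III ASO livers 1 to 5. The groups overlapped, and the log2 fold change was -0.28 ± 0.23 (SE; limma, unadjusted p = 0.254, adjusted p = 0.918). It was 0.20 without factors. *Serpind1*, heparin cofactor II, stood at 363, 325, 369 and 409 scaled TPM in control ASO livers 1 to 4 and 278, 243, 278, 259 and 222 in apoC-III ASO livers 1 to 5. With factors, each control value lay above each apoC-III ASO value, with coefficients of variation of 9.30% in the apoC-III ASO and 9.44% in the control ASO group. Without factors these were 22.1% and 24.4%, and the groups overlapped. The log2 fold change was -0.51 ± 0.18 (SE; limma, unadjusted p = 0.016, adjusted p = 0.860), and it was -0.037 without factors.

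In clade F, *Serpinf1* encodes pigment epithelium-derived factor, which does not inhibit proteases, and *Serpinf2* encodes α2-antiplasmin, the main inhibitor of plasmin. *Serpinf1* stood at 721, 684, 666 and 653 scaled TPM in control ASO livers 1 to 4 and 587, 516, 600.0, 479.6 and 641 in apoC-III ASO livers 1 to 5. With factors the groups did not overlap, the highest apoC-III ASO value being just under the lowest control value, but without factors they did. The log2 fold change was -0.28 ± 0.19 (SE; limma, unadjusted p = 0.167, adjusted p = 0.902). *Serpinf2* gave means of 519 ± 98.8 (SD, n = 5) against 617 ± 76.9 (SD, n = 4) scaled TPM, with overlap and a log2 fold change of -0.26 ± 0.21 (SE; limma, unadjusted p = 0.25, adjusted p = 0.918). Without factors both changed sign, to 0.20 and 0.22. *Serping1*, the C1 inhibitor of the complement and contact systems, gave means of 359 ± 73.4 (SD, n = 5) against 386 ± 64.01 (SD, n = 4) scaled TPM and a log2 fold change of -0.11 ± 0.22 (SE; limma, unadjusted p = 0.61, adjusted p = 0.974).

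*Serpinh1*, the collagen chaperone HSP47 of collagen-making cells, was the serpin with the smallest p among the 6 that were higher. It stood at 6.603, 17.05, 7.57 and 4.37 scaled TPM in control ASO livers 1 to 4 and 12.4, 14.04, 15.9, 13.6 and 10.5 in apoC-III ASO livers 1 to 5. Control liver 2 lay above every apoC-III ASO liver and the other 3 controls lay below all of them. Its log2 fold change was 0.67 ± 0.32 (SE; limma, unadjusted p = 0.0573, adjusted p = 0.882). The stellate cell and fibroblast markers summed to 126 to 157 scaled TPM with the apoC-III ASO and 146 to 274 with the control ASO, 6 of 8 of them lower (*Lrat* and *Dcn* with an unadjusted p under 0.05, background 2.57%), and their part in the *Serpinh1* value was not tested. *Serpine2*, protease nexin 1, stood at 7.62, 8.52, 7.704 and 7.47 scaled TPM in control ASO livers 1 to 4 and 0.483, 4.66, 6.82, 12.5 and 4.96 in apoC-III ASO livers 1 to 5. With factors its controls were close together (coefficient of variation 6.04%), though not without factors (36.3%). Liver 1 of the apoC-III ASO group was almost without *Serpine2*, and the log2 fold change was -0.67 ± 0.50 (SE; limma, unadjusted p = 0.207, adjusted p = 0.909).

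The intracellular clade B was scarce in these livers. *Serpinb6a*, an inhibitor of cathepsin G, gave means of 12.8 ± 5.11 (SD, n = 5) against 14.2 ± 8.68 (SD, n = 4) scaled TPM, *Serpinb8* 5.32 ± 1.84 (SD, n = 5) against 6.26 ± 2.49 (SD, n = 4), *Serpinb1a*, an inhibitor of neutrophil elastase, 2.998 ± 2.38 (SD, n = 5) against 2.75 ± 2.06 (SD, n = 4), and *Serpinb6b* 1.42 ± 1.503 (SD, n = 5) against 1.41 ± 0.606 (SD, n = 4). All 4 overlapped between groups, with log2 fold changes of -0.059, -0.18, 0.029 and -0.16, and their directions depended on the scaling or on single livers. Markers of neutrophils and other leukocytes summed to 7.38 to 24.8 scaled TPM with the apoC-III ASO and 15.5 to 29.2 with the control ASO. Of these markers, 3 of 3 tested were lower. The neutrophil markers *S100a8* and *Ly6g* were listed at 0 in every liver, whereas *S100a9* and *Retnlg*, also neutrophil markers, were not at 0 throughout. Macrophage markers summed to 74.6 to 106 and 68.8 to 117 (4 of 7 tested higher). Endothelial markers summed to 133 to 188 and 113 to 163 (5 of 8 higher), and cholangiocyte markers to 37.9 to 81.8 and 41.0 to 121 (1 of 3 tested higher). The part of these cells in the clade B values was not tested.

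Genes that work with the serpins were counted in lists chosen for their known roles, and 0 genes of any list passed the adjusted test. Over all genes tested, 50.1% were lower. An unadjusted p under 0.05 (limma) was reached by 2.57% in the lower and 3.0% in the higher direction. Of the plasma proteases that serpins inhibit, 16 of 18 were tested, with 12 lower and 4 higher (median -0.20). Among the lower were *F2*, prothrombin (log2 fold change -0.23), and *F9*, factor IX (-0.47), and among the higher *F12* (0.21) and *C1s1* (0.26). Most of that list lay between 100 and 1000 scaled TPM, where 65.7% of all genes were lower. *Habp2*, a plasma serine protease, was the 1 gene of that list with an unadjusted p under 0.05, with a log2 fold change of -0.57 ± 0.25 (SE; limma, unadjusted p = 0.0431, adjusted p = 0.876). Of the leukocyte and lysosomal proteases, 3 of 11 were tested, with 2 higher and 1 lower (median 0.020), and the serpin cofactors and clearance receptors gave 8 of 9 tested, 5 higher and 3 lower (median 0.12). None of the tested genes of those other lists had an unadjusted p under 0.05.

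The 12 genes that fold, export or degrade serpins in the secretory pathway split evenly, 6 higher and 6 lower. *Lman1*, the cargo receptor that carries α1-antitrypsin out of the endoplasmic reticulum, stood at 259, 301, 288 and 361 scaled TPM in control ASO livers 1 to 4 and 187, 181, 229, 246 and 183 in apoC-III ASO livers 1 to 5. With factors its groups did not overlap, and its log2 fold change was -0.56 ± 0.20 (SE; limma, unadjusted p = 0.0158, adjusted p = 0.860). *Man1b1*, a mannosidase that marks misfolded glycoproteins such as mutant α1-antitrypsin for degradation, stood at 20.7, 21.3, 16.01 and 9.96 scaled TPM in control ASO livers 1 to 4 and 24.97, 25.8, 22.9, 24.7 and 23.6 in apoC-III ASO livers 1 to 5. With factors its groups did not overlap either, in the other direction, with a log2 fold change of 0.55 ± 0.24 (SE; limma, unadjusted p = 0.0387, adjusted p = 0.876). Without factors the groups overlapped for both *Lman1* and *Man1b1*. The 10 hepatocyte transcription factors gave 7 higher and 3 lower (median 0.090) and 0 with an unadjusted p under 0.05 (limma).

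The acute phase list, genes of the hepatic response to inflammation, gave 12 of 23 higher and 11 lower (median 0.0085). Its 4 genes with an unadjusted p under 0.05 were divided, 2 lower (background 2.57%) and 2 higher (background 3.0%). *Hamp*, the iron hormone hepcidin, stood at 2443, 2047, 2019.7 and 2283 scaled TPM in control ASO livers 1 to 4 and 1255, 839, 1053, 1321 and 1771 in apoC-III ASO livers 1 to 5. Its groups did not overlap on this scale, but without factors they did. *Orm3*, an orosomucoid, gave means of 4.57 ± 0.466 (SD, n = 5) against 10.1 ± 4.201 (SD, n = 4) scaled TPM. The log2 fold changes of *Hamp* and *Orm3* were -0.86 ± 0.25 (SE; limma, unadjusted p = 0.00477, adjusted p = 0.839) and -0.92 ± 0.27 (SE; limma, unadjusted p = 0.0052, adjusted p = 0.842). *Saa3*, a serum amyloid A, and *Socs3*, an inhibitor of cytokine signaling, had positive log2 fold changes of 0.86 ± 0.33 (SE; limma, unadjusted p = 0.0242, adjusted p = 0.873) and 1.85 ± 0.83 (SE; limma, unadjusted p = 0.0466, adjusted p = 0.876). The list of growth hormone dependent liver genes gave 1 of 9 higher and 8 lower (median -0.11). Over all genes 50.1% were lower, and 65.7% of those between 100 and 1000 scaled TPM. *Cyp4a12b*, a fatty acid hydroxylase of that list, was at -0.64 ± 0.27 (SE; limma, unadjusted p = 0.0384, adjusted p = 0.876).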

How the data were processed

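RNA from 9 livers was sequenced by the study on an Illumina instrument (ribo-depleted, stranded, single-end reads). Values were deposited as TPM of each gene. The submitters' processing notes name kallisto 0.43.1 and GRCm38, whereas the methods of the study describe counts from STAR and featureCounts, not used here. All value columns belonged to a mapped liver. Groups followed the labelled ASO target. Where nothing says otherwise each library was taken as 1 mouse.

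Genes were matched by Ensembl ID to GENCODE M21 (51719 of 51912). TPM of 21857 nuclear protein-coding genes was rescaled to 1000000 per liver and divided by median-of-ratios factors (12263 genes). On log2(value + 1), 11968 genes with a mean of at least 1 were fitted with limma 3.58.1 (R 4.3.3; lmFit, eBayes with trend), adjusted by Benjamini-Hochberg over all of them. A fold change on this scale understates changes of low genes. The script was tested on simulated data. Python 3.11.15, scipy 1.17.1 and Biopython 1.88 served the other steps.

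Named were every tested serpin, up to 5 genes per pathway list with the smallest unadjusted p under 0.05, *Apoc3*, and clades without a tested gene. *F2*, *F9*, *F12*, *C1s1*, *Gm8893*, *Serpina5*, *Serpinb9*, *Serpini1*, *Anpep* and the marker genes *Lrat*, *Dcn*, *S100a8*, *S100a9*, *Retnlg* and *Ly6g* fall outside that rule and were picked with their values in view. The members, the 7 pathway lists and the 6 marker lists were chosen with earlier results of these data known, so nothing here is independent evidence. No list was tested as a set. Sequences of proteins were not used here, and some items are not reported here.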

Additional observations from a re-analysis of the deposited data

Results flagged for a closer look

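A liver was singled out where its gap to the nearest other liver of its group exceeded the 95% critical share of the group's range (Dixon), and chance alone gives about 1 in 20 groups. Of 90 groups examined (28 serpin genes, sums and shares, and *Apoc3* as deposited TPM, each in both ASO groups), 8 met this. Over all genes tested, 7.91% of genes did so in the apoC-III ASO group and 9.63% in the control ASO group, in the latter mostly through liver 4. *Serpina11* was 114 scaled TPM in apoC-III ASO liver 4, the highest of its group, against 18.4 to 42.2 scaled TPM in the others. *Serpina1e* was 151 scaled TPM in apoC-III ASO liver 4, the lowest of its group, against 2963 to 3733 scaled TPM in the others. *Serpina3n* was 247 scaled TPM in apoC-III ASO liver 5, the highest of its group, against 90.5 to 136 scaled TPM in the others. *Serpinb1a* was 5.81 scaled TPM in control ASO liver 4, the highest of its group, against 1.29 to 2.06 scaled TPM in the others. The share of *Serpina1b* in the *Serpina1* sum was 32.02% in apoC-III ASO liver 4, the highest of its group, against 13.9 to 17.7% in the others. The share of *Serpina1c* in the *Serpina1* sum was 26.2% in control ASO liver 2, the highest of its group, against 20.4 to 20.8% in the others. The share of *Serpina3n* in the *Serpina3* sum was 3.01% in apoC-III ASO liver 5, the highest of its group, against 1.05 to 1.605% in the others. The share of the *Serpina1* and *Serpina3* copies in all serpins was 68.6% in apoC-III ASO liver 4, the lowest of its group, against 80.4 to 83.7% in the others. Apart from *Serpina3n*, its share and the control values, each of these involves apoC-III ASO liver 4. The shares are not independent of the genes they are made of.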

How the results depend on the processing

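Of the 28 serpins, 16 kept their direction in each of the 20 alternatives that could be run for them, and 12 did not. No serpin passed the adjusted test in any alternative. The log2 fold changes that reversed were, without factors *Serpina10* 0.28, *Serpina11* 0.28, *Serpina7* 0.46, *Serpinb6a* 0.39, *Serpinb6b* 0.14, *Serpinb8* 0.22, *Serpinc1* 0.20, *Serpinf1* 0.20, *Serpinf2* 0.22 and *Serping1* 0.36, and with the replicate block *Serpina10* 0.027, *Serpina11* 0.082, *Serpina7* 0.65 and *Serpinb6b* 0.11, and with TPM as deposited *Serpina11* 0.071, *Serpinc1* 0.057, *Serpinf1* 0.037, *Serpinf2* 0.057 and *Serping1* 0.17. Others were, with a pseudocount of 5 *Serpina7* 0.13, and with array weights *Serpina7* 0.44, *Serpinb6a* 0.15 and *Serpinb6b* 0.027, and with a pseudocount of 0.1 *Serpinb1a* -0.023. With 1 liver left out, genes that changed sign in some fit ranged as follows: *Serpina10* -0.49 to 0.031, *Serpina11* -0.56 to 0.082, *Serpina3m* -0.26 to 0.50, *Serpina7* -0.30 to 0.65, *Serpinb1a* -0.26 to 0.36, *Serpinb6a* -0.30 to 0.28, *Serpinb6b* -0.47 to 0.11, *Serpinb8* -0.41 to 0.016. The causes were not tested.

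At an unadjusted p under 0.05, 6 serpins were lower, but 0 with TPM as deposited and 0 without factors, and 4 to 8 with 1 liver left out. Higher were 0, but 1 without factors, 2 with the replicate block, and 0 to 1 with 1 liver left out (1 without control ASO liver 2). All genes called lower numbered 2, but 6 with TPM as deposited, 1 each with all-gene factors, without factors, with a pseudocount of 5, with no filter and without a trend, and 1 to 3 with 1 liver left out (1 without apoC-III ASO liver 1, 2, 3 or 4, or control ASO liver 1 or 3). All genes called higher numbered 0, but 5 with TPM as deposited, 1 with all-gene factors, 1 with the replicate block and 0 to 1 with 1 liver left out (1 without apoC-III ASO liver 3). The difference in *Apoc3* was -83.4% to -89.2% with 1 liver left out. A pseudocount, filter or weights do not enter its exact test.

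The labels give no pairing of same-numbered livers, and correlations of their deviations were low (0.067, 0.12, 0.028 and 0.19). The same-numbered apoC-III ASO liver correlated best for control livers 2 and 4 but not 1 and 3. A pairing was thus not established. The replicate block, which gives no information from apoC-III ASO liver 5, is only reported here. With it 933 genes had an unadjusted p under 0.05, against 667 without it. The smallest p of a serpin with the block was 0.00076 (limma, adjusted p = 0.523). TPM holds no counts, so what depth limits is unknown.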
